A study of Homo sapiens with 6 samples.

Results

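The transcripts of the E proteins (TCF3, TCF12 and TCF4) and of their inhibitors, the ID proteins (ID1 to ID4), were followed in the MOLT-4 cell line, established from human T-cell acute lymphoblastic leukemia. The 7 genes were taken by their symbols from tables that list 60640 gene identifiers, and 6 of them were among the 12652 genes with a mean of at least 1 FPKM (fragments per kilobase of transcript, scaled to the mapped fragments of the library). PolyA RNA was sequenced from 3 wild type libraries, which served as the control of a CRISPR knockout, and from 3 libraries labelled IK-KO, made from MOLT-4 cells in which CRISPR-Cas had been directed at IKZF1, the gene of the DNA-binding lymphoid regulator IKAROS. Both groups were grown in RPMI1640 with FBS and received no further treatment. The edited cells and their control were bought as a line. The labels name no clone and do not say whether the replicates were separate cultures. Differences between the lines therefore cannot be told apart from the loss of IKAROS, and every p-value covers only the spread among these libraries.

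E proteins are basic helix-loop-helix (bHLH) transcription factors that bind E-box DNA (CANNTG) as dimers with each other or with tissue-restricted bHLH partners. ID proteins hold the helix-loop-helix but lack the basic region, so a dimer of an ID and an E protein does not bind DNA. In developing T cells E proteins drive receptor gene rearrangement and pre-T-cell receptor expression, and a rise of ID3 after receptor signals lowers their activity.

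IKZF1 itself was measured at 134, 124 and 105 FPKM in wild type, against 207, 260 and 207 FPKM under the IK-KO label. The targeted transcript was thus higher, not lower, in every IK-KO library (log2 change 0.89, SE 0.12, limma adjusted p = 0.00295), and a gene-level value does not show whether the edited reading frame was intact. The study describes PCR and protein blots as its own check of the knockout, which were not analysed here. Rows above 0 numbered between 21254 and 21887 per library, mitochondrial transcripts held 13.0% to 14.4% of the FPKM sum, and the confidence bounds gave a relative depth of 12.01 to 14.6 fragments per FPKM and kilobase. All 21 T-lineage markers were among the tested genes, with sums of 5755 to 6122 FPKM in wild type and 6723 to 7245 FPKM in IK-KO. Of these markers 8 were called higher and 7 lower, 71.4% in all, beside 19.9% of all tested genes called. Among 7 B-cell, 9 myeloid and 7 erythroid markers, summed levels were at most 5.28, 0.948 and 0.987 FPKM in any library. The 9 stromal and epithelial markers summed to 16.99 to 20.2 FPKM in wild type and 19.4 to 23.2 FPKM in IK-KO, and 2 of them were tested, with none called.

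Among the inhibitors, ID1 and ID3 were higher in every library labelled IK-KO, ID2 did not pass the test, and ID4 was listed at 0 in all 6 libraries. None of the 3 E protein genes passed the test. Thus 2 of the 6 tested members were called at an adjusted p under 0.05, both higher, beside 19.9% of all tested genes called in either direction, 10.1% called higher and 9.75% called lower. In bulk RNA, fewer cells with a transcript and less transcript per cell cannot be told apart.

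The DNA just upstream of the inhibitors is shown for the pair of genes that were called, ID1 and ID3, and for ID2, which was not. Each stretch covers the 250 bases before the RefSeq transcription start on GRCh38.p14, written 5′ to 3′ along the gene's strand. They lie at chr20:31605039-31605288 on the plus strand (ID1), chr1:23559502-23559751 on the minus strand (ID3) and chr2:8681806-8682055 on the plus strand (ID2). Capitals mark E-boxes (CANNTG), the GGGAA core bound by IKAROS and TATAA, each on either strand.
ID1: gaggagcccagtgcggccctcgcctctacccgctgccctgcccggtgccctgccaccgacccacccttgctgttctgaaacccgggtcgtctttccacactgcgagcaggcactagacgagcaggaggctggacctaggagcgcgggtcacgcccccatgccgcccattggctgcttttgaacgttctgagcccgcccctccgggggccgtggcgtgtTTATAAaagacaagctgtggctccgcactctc
ID3: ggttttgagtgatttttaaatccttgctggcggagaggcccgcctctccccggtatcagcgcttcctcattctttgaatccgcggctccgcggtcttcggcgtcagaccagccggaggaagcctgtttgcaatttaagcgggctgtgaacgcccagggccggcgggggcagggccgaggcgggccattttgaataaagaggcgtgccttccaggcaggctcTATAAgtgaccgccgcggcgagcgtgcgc
ID2: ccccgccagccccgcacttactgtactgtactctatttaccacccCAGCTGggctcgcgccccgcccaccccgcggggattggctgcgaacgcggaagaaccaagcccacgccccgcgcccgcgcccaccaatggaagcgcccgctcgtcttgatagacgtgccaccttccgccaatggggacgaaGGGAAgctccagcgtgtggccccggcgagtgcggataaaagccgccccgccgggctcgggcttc
The windows of ID1 and ID3 held no CANNTG and no GGGAA on either strand. Over 35116 RefSeq windows of this length, 61.8% held CANNTG and 59.0% held GGGAA. The TATAA letters began 31 bases before the ID1 start, where a match on the other strand overlaps it, and 29 bases before the ID3 start. Of all windows, 18.9% held it on either strand. The ID2 window held CAGCTG from 205 bases and GGGAA from 64 bases before the start, and no TATAA. This ID2 window lies inside the interval over which the deposited tables quantify ID2, which begins further upstream. These letters are a description of the windows only, and no binding was measured.

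ID1 (ENSG00000125968.9, GRCh38 chr20:31605283-31606515, plus strand) encodes an inhibitor with broad affinity for E proteins. Its level was 35.6, 40.3 and 28.3 FPKM in wild type and 119, 118 and 110.0 FPKM in IK-KO. All 3 IK-KO libraries lay far above all 3 wild type libraries, and their own spread was narrow. The means were 34.7 ± 6.04 and 116 ± 5.10 FPKM (SD, n = 3 each), a ratio of 3.33, and the difference on the log2(FPKM + 1) scale was 1.72 (SE 0.12, 95% interval 1.44 to 2.005, limma adjusted p = 0.00019). By size of rise ID1 ranked 48 of 12652 tested genes. The lowest of the lower confidence bounds of ID1 in IK-KO, 103 FPKM, was above the highest of the upper bounds in wild type, 43.9 FPKM.

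ID3 (ENSG00000117318.9, chr1:23557926-23559501, minus strand) encodes the inhibitor that is induced by T-cell receptor signals. It stood at 116, 122 and 115 FPKM in wild type, against 168, 171 and 157 FPKM in IK-KO. The groups did not overlap, and every IK-KO library exceeded every wild type library. The means were 118 ± 3.89 and 165 ± 7.21 FPKM (SD, n = 3 each), a ratio of 1.40, with a log2(FPKM + 1) change of 0.48 (SE 0.05, 95% interval 0.36 to 0.61, limma adjusted p = 0.00107). ID3 was the more abundant inhibitor in every library, but ID1 rose by more on the log2 scale and the intervals of the 2 changes did not overlap. Both changes stayed called in all 15 alternatives tried.

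ID2 (ENSG00000115738.10, chr2:8678845-8684461, plus strand), known for its part in innate lymphoid and natural killer cells, stayed under 5 FPKM. Its values were 4.66, 4.78 and 3.91 FPKM in wild type and 4.77, 4.87 and 4.79 FPKM in IK-KO. The groups overlapped, and the log2(FPKM + 1) change was 0.10 (95% interval -0.15 to 0.35, limma adjusted p = 0.578). ID4 (ENSG00000172201.12, chr6:19837370-19842197, plus strand), best known in neural and germ cells, was listed at 0 in all 6 libraries with an estimation status of OK, so no test was made.

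TCF3 (ENSG00000071564.16, chr19:1609290-1652615, minus strand) encodes E12 and E47, splice forms that a gene-level table cannot separate. It was the most abundant E protein transcript, with 147, 153 and 144 FPKM in wild type and 151, 152 and 156 FPKM in IK-KO. The groups overlapped, and the log2(FPKM + 1) change was 0.04 (95% interval -0.06 to 0.15, limma adjusted p = 0.522).

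TCF12 (ENSG00000140262.17, chr15:56918623-57299281, plus strand) encodes HEB, the E protein that pairs with E2A proteins in thymocytes. Its values were 71.8, 69.3 and 68.3 FPKM in wild type and 81.9, 71.99 and 82.9 FPKM in IK-KO. The groups did not overlap, as held for 39.0% of all tested genes, but IK-KO replicate 2 lay just above the highest wild type library. The log2(FPKM + 1) change was 0.17 (SE 0.07, 95% interval 0.02 to 0.33), with a limma p of 0.0339 before and 0.115 after adjustment. Without IK-KO replicate 2 the change was 0.24 and passed the threshold (limma adjusted p = 0.0403). The confidence bounds of wild type replicate 3 were wide, from 19.6 to 117 FPKM. Those of IK-KO replicate 3, the highest library, were also wide, from 56.7 to 109 FPKM.

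TCF4 (ENSG00000196628.18, chr18:55222185-55664787, minus strand), the E protein known for plasmacytoid dendritic cells, was the least abundant of the family. It was measured at 11.2, 8.76 and 4.02 FPKM in wild type, against 7.94, 12.1 and 8.56 FPKM in IK-KO. The groups overlapped, and wild type replicate 3 was the lowest library. The log2(FPKM + 1) change was 0.30 with an interval from -0.46 to 1.06 (limma adjusted p = 0.568), and it was -0.07 without wild type replicate 3.

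**Figure D1:**
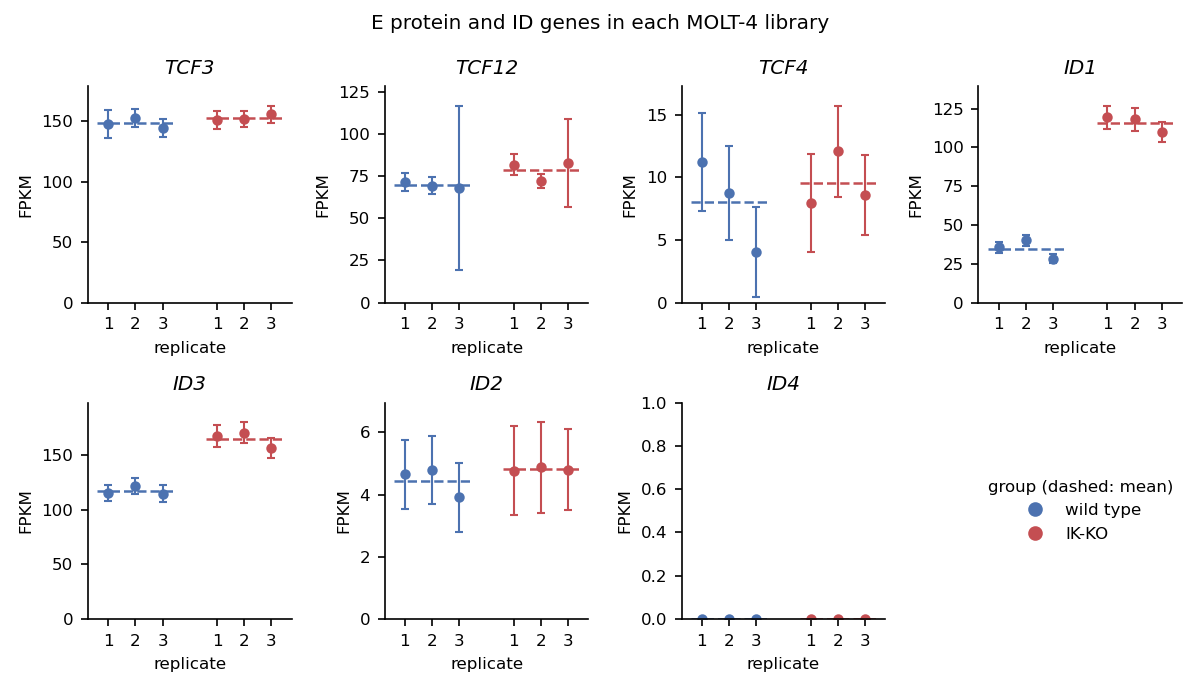
Level of each E protein and ID gene in FPKM (vertical axis, linear, from 0) in the 3 wild type and 3 IK-KO libraries, with the confidence bounds of the deposited tables as bars and group means as dashed lines. ID1 lies between 28.3 and 40.3 FPKM in wild type and between 110.0 and 119 FPKM in IK-KO, ID3 is also separated, and ID4 is at 0 throughout.

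**Figure D2:**
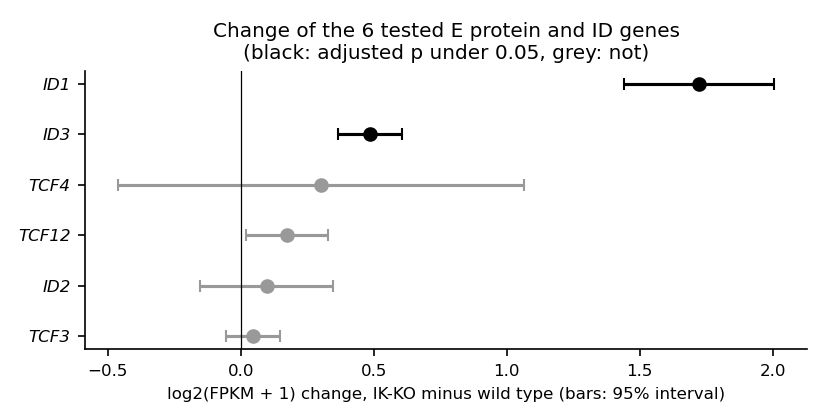
Difference of log2(FPKM + 1) between IK-KO and wild type for the 6 tested members (points) with 95% intervals from limma (bars), called genes in black. ID1 at 1.72 and ID3 at 0.48 are the called genes, and the interval of TCF4 is the widest.

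Few annotated transcripts overlap these loci. HNRNPA3P11, a processed pseudogene inside TCF12, was at 0.157 to 0.386 FPKM, and ID2-AS1, antisense to ID2, at 0.0135 to 0.128 FPKM. Both were far under their host's level, and the other 8 overlapping genes, among them TCF4-AS1, TCF4-AS2 and LNC-LBCS at ID4, were listed at 0 in all libraries. Whether the quantification used strand is not stated, which leaves antisense signal uncertain.

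The chromosomal surroundings were read from the 20 nearest tested genes of each member. Around ID1 their median log2(FPKM + 1) change was 0.07 with 2 of 20 called, and around ID3 it was 0.03 with 2 of 20 called. The tested genes on either side of ID1, MCTS2P and BCL2L1, had log2 changes of -0.28 and 0.29, and those beside ID3, E2F2 and RPL11, had changes of 0.11 and -0.19. The medians around TCF3, TCF12, TCF4 and ID2 were 0.04, 0.04, 0.03 and 0.02. The surroundings of ID4 differed from these: the median was 0.24, 9 of 20 genes were called and all 9 were higher, on a chromosome where 35.6% of tested genes were called.

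The balance of inhibitor and E protein transcripts was described by sums, since FPKM is per length and can be added over genes. The 4 ID genes summed to 156, 167 and 147 FPKM in wild type and to 292, 294 and 272 FPKM in IK-KO. The 3 E protein genes summed to 230.4, 230.5 and 217 FPKM in wild type and to 241, 236 and 247 FPKM in IK-KO. By summed FPKM, inhibitor transcripts were thus below E protein transcripts in every wild type library and above them in every IK-KO library. The sums take no account of confidence bounds. In IK-KO replicate 3, where the sums were 272 and 247 FPKM, the bounds of TCF12 ran from 56.7 to 109 FPKM. The order of the sums is therefore less certain in that library. The ratio of the sums was 0.694 ± 0.0269 in wild type and 1.19 ± 0.0769 in IK-KO (SD, n = 3 each). These sums rest on ID1 and ID3, which were tested above, so the ratio was given no test. Transcript sums do not measure protein or dimers.

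**Figure D3:**
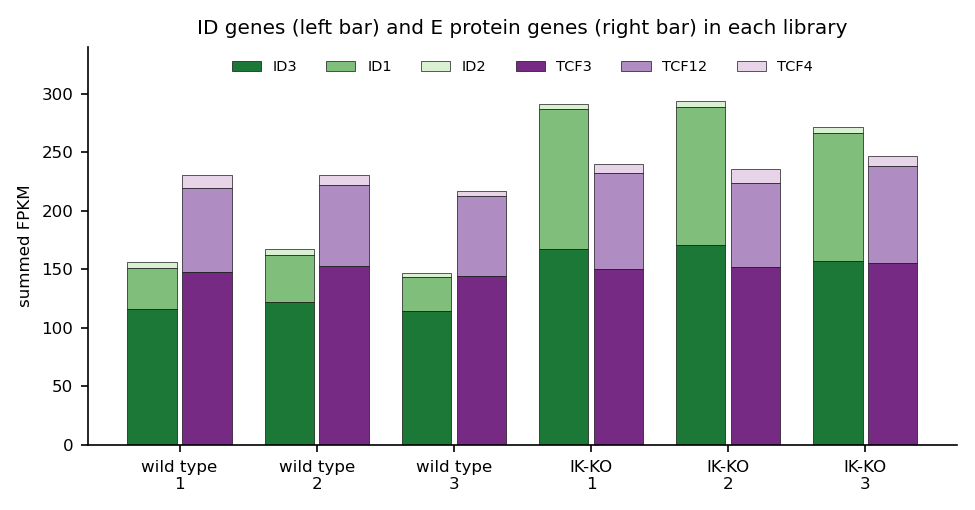
Summed FPKM (vertical axis, from 0) of the ID genes (left bar, green) and the E protein genes (right bar, purple) in each library, divided by gene; ID4 is at 0. The left bar is lower than the right in the 3 wild type libraries (147 to 167 against 217 to 230.5 FPKM) and higher in the 3 IK-KO libraries (272 to 294 against 236 to 247 FPKM).

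Within the inhibitors, ID1 made up 22.1% ± 2.53 of the sum in wild type and 40.6% ± 0.344 in IK-KO (SD, n = 3 each). The ratio of ID1 to ID3 was 0.308, 0.330 and 0.246 in wild type and 0.712, 0.693 and 0.701 in IK-KO. TCF3 held 65.6% ± 1.41 and 63.3% ± 0.911 of the E protein sum. The order of FPKM levels was the same within each group's libraries. In wild type it ran from TCF3 through ID3, TCF12, ID1, TCF4 and ID2 to ID4, where the ranges of TCF4 and ID2 overlapped. In IK-KO, ID3 stood above TCF3 and ID1 above TCF12. There ID3 (157 to 171 FPKM) and TCF3 (151 to 156 FPKM) were close, and in IK-KO replicates 1 and 3 their confidence bounds overlapped. The bounds of ID1 (103 to 117 FPKM) and TCF12 (56.7 to 109 FPKM) also overlapped in IK-KO replicate 3. In wild type replicate 3 the bounds of TCF12, 19.6 to 117 FPKM, contained those of ID1 and overlapped those of ID3.

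Partners that bind DNA with E proteins, or bridge such dimers, were read from a list of 50 bHLH, LMO, LDB and SSBP genes. Of these, 9 were tested, 4 were called higher and 2 lower, beside 19.9% called over all tested genes, with a median log2 change of 0.22 against 0.02 over all tested genes. The list and the others below were written with earlier results of these data known, so their counts are descriptions. TAL1, the bHLH factor that pairs with E proteins in T-cell leukemia, was at 25.0, 22.8 and 21.5 FPKM in wild type, against 13.2, 11.6 and 12.1 FPKM in IK-KO. It fell in every IK-KO library (log2 change -0.86, SE 0.08, limma adjusted p = 0.000736). LMO2, which bridges TAL1 to LDB1, fell as well (log2 change -0.67, adjusted p = 0.0182), though 5 of 14 alternatives ended its call. LMO4, a related LIM-only protein, rose from between 3.36 and 3.96 FPKM in wild type to between 7.25 and 8.18 FPKM in IK-KO (log2 change 0.93, adjusted p = 0.0012). BHLHE23, a bHLH gene known from retina, was also higher (log2 change 0.87, adjusted p = 0.0186), a call that 3 of 14 alternatives ended. LDB1 (0.41, adjusted p = 0.00155) and SSBP3 (0.29, adjusted p = 0.0343) made up the rest of the called partners. With a replicate block, with quantile normalization or without the mean-variance trend, 5 partners were called. TAL1, LMO2, LMO4 and BHLHE23 were among them, so LDB1, SSBP3 or both lost the call in each. Leaving out wild type replicate 2 lowered the number called to 3. The other leukemia partners LYL1 and TAL2 stayed under 0.5 FPKM in all libraries.

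**Figure D4:**
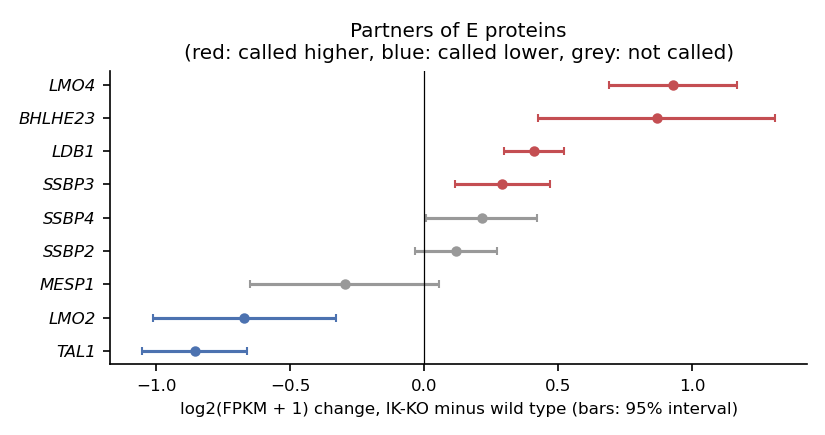
Difference of log2(FPKM + 1) between IK-KO and wild type for the 9 tested partner genes (points) with 95% intervals from limma (bars), red for called higher, blue for called lower and grey for not called. TAL1 at -0.86 and LMO2 at -0.67 lie opposite LMO4 at 0.93 and BHLHE23 at 0.87.

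Genes known as E protein targets in lymphoid cells moved in both directions. Of 36 listed, 26 were tested, 11 were called higher and 8 lower, beside 19.9% called over all genes, and the median log2 change was 0.07. The share called, 73.1% of those tested, was near the 71.4% of the T-lineage markers, so it was not particular to these targets. RAG1, a subunit of the V(D)J recombinase, was at 60.8, 60.6 and 53.7 FPKM in wild type, against 17.04, 15.01 and 17.8 FPKM in IK-KO (log2 change -1.75, adjusted p = 5.07e-05). VPREB1, a surrogate light chain gene, fell from 8.34, 9.23 and 9.20 FPKM to 1.16, 0.494 and 0.688 FPKM (log2 change -2.49, adjusted p = 0.000135). The mean of VPREB1 in IK-KO, 0.781 FPKM, was under the filter of 1 FPKM, so the gene was tested only because of its wild type values. Neither gene's groups overlapped. RAG2 (-0.81, adjusted p = 0.0289) and DNTT (-1.67, adjusted p = 2.06e-05), which encodes terminal transferase, were lower too. PTCRA, the gene of the pre-T-cell receptor alpha chain, was higher instead, by 0.69 on the log2 scale (adjusted p = 0.0466) at levels under 3.5 FPKM. CCR9, a thymus homing receptor, was at 57.9, 54.6 and 55.6 FPKM in wild type, against 150, 152 and 148 FPKM in IK-KO (log2 change 1.41, adjusted p = 8.93e-06). These p-values come from the same limma fit over all genes, and CD4, CD8A, CD3G, GATA3 and TCF7 of the list are also among the T-lineage markers.

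**Figure D5:**
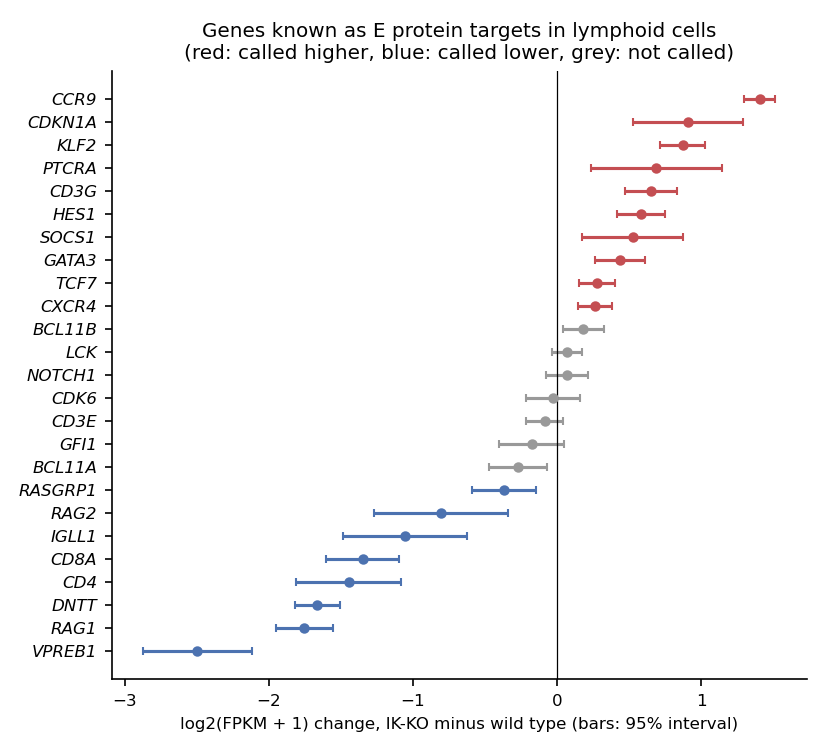
Difference of log2(FPKM + 1) between IK-KO and wild type for the tested genes known as E protein targets, 1 of the 26 not drawn (points) with 95% intervals from limma (bars), red for called higher, blue for called lower and grey for not called. CCR9 stands highest at 1.41 and VPREB1 lowest at -2.49, and 7 genes were not called. VPREB1 and CD4 had an IK-KO mean under 1 FPKM and entered the test only through wild type.

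ID genes are textbook targets of BMP signals, which act through SMAD1, SMAD5 and SMAD4, and of EGR factors. In a list of 55 genes of the BMP and related pathway, 20 were tested and 2 were called, both lower, beside 19.9% of all tested genes called and 9.75% called lower. TGFBR2, a receptor for TGF-beta and not for BMP, fell from between 5.26 and 5.61 FPKM to between 2.59 and 3.08 FPKM (log2 change -0.75, adjusted p = 0.00344). RGMA, a BMP co-receptor, fell from between 12.7 and 15.1 FPKM to between 9.78 and 10.3 FPKM (log2 change -0.43, adjusted p = 0.0124). The median log2 change of the tested genes in this list was 0.06. SMAD1 (0.24, interval 0.04 to 0.44), SMAD5 (-0.17, interval -0.78 to 0.44) and SMAD4 (0.23, interval -0.14 to 0.59) were not called. Neither were the receptors BMPR1A (0.01, interval -0.51 to 0.53) and BMPR2 (0.42, interval 0.07 to 0.77). The number called was 1 with a minimum mean of 5 FPKM and 4 after quantile normalization.

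Among 10 genes of the EGR group, 7 were tested and 2 were called, both higher, beside 19.9% of all tested genes called and 10.1% called higher. Without a filter, with the replicate block, or without any 1 of 4 libraries (wild type replicates 2 and 3, IK-KO replicates 1 and 2), 1 was called. EGR1, an immediate early zinc finger factor, was at 0.536, 0.704 and 0.737 FPKM in wild type, against 1.81, 2.29 and 1.22 FPKM in IK-KO. Its wild type values were under the filter of 1 FPKM, so it was tested only because of its IK-KO values, and the call (log2 change 0.72, adjusted p = 0.0405) was lost in 7 of 14 alternatives. NAB2, a corepressor of EGR factors, rose from 4.55, 4.39 and 3.47 FPKM to 6.96, 7.68 and 7.03 FPKM (log2 change 0.68, adjusted p = 0.00727).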

How the data were processed

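PolyA RNA of 3 wild type and 3 IK-KO MOLT-4 libraries was analysed, grouped by GEO's labels. The authors deposited gene-level FPKM with confidence bounds and an estimation status, 60752 rows per library. The submitters' processing notes name STAR 2.6.1c, Cufflinks 2.2.1, HOMER 4.10 and hg38 without roles; the annotation and strand setting are not given in the sources used here. Of 49784 identifiers whose version also occurs in GENCODE release 44, 49771 lay at its GRCh38 position.

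Rows of 1 identifier were summed, and 29 genes with a failed estimate were left out. Changes, IK-KO minus wild type, were tested on log2(FPKM + 1), which understates changes of low genes, with limma 3.58.1 in R 4.3.3 (trended eBayes, two-sided, Benjamini-Hochberg) over the 12652 genes with a mean of at least 1 FPKM, and called at an adjusted p under 0.05: 1282 higher and 1233 lower. The study's RNA-seq methods describe mouse counts and a test between conditions with no adjustment. An exact permutation test of 3 against 3 libraries cannot go below p = 0.1, so none was used, and ID4 allowed no test. The fit was tested on simulated data. Of 200 genes given a log2 change of 0.5, 72 were called, and of 200 given a change of 1.0, 176 were called. Each time 9 unchanged genes were called. Many changes near 0.5 would thus be missed. Relative depth was estimated from the confidence bounds and GENCODE lengths of genes with a single transcript, and between 61.7% and 63.2% of implied fragment numbers under 40 lay within 0.05 of a whole number, so no count test was run.

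The members and gene lists were chosen with earlier results of these data known. From each list the 2 largest called rises and falls were named, with IKZF1, overlapping genes and the 2 genes most correlated with each called member; any other gene was named after its values were seen, and 1 target gene is not reported here. Promoter windows came from RefSeq and matched all 7 members, with 20 windows, of which 3 are printed. Windows were searched on both strands also for GGCGCC and GCGTGGGCG, found in 16.4% and 0.721% of all windows and in none of those printed. Alternatives were a pseudocount of 0.1, no filter or 5 FPKM, median scaling, quantile normalization, a replicate block, no trend, array weights, keeping failed estimates, leaving out each library, 5 neighbours a side, and the ratio of sums without TCF4 and ID4 (0.719 and 1.23).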

Additional observations from a re-analysis of the deposited data

How the results depend on the processing

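The calls of ID1 and ID3 were kept in all 15 alternatives, with log2 changes of 1.59 to 1.83 and 0.44 to 0.52. ID2 gave 0.02 to 0.14 in 14 alternatives (with a minimum of 5 FPKM it was not tested), and ID4 gave no value in any. The change of TCF3 was -0.0017 after quantile normalization and 0.00862 after subtracting its neighbours' median, an alternative chosen after seeing the data; the cause was not tested. Leaving out 1 library at a time gave 0.03 to 0.07 for TCF3, 0.14 to 0.24 for TCF12 and -0.0731 to 0.57 for TCF4, where -0.0731 came without wild type replicate 3. In the same fits 0 to 1 E proteins, 3 to 6 partners, 3 to 5 other helix-loop-helix genes, 1 to 2 EGR genes, 1 to 2 coregulators, 2 to 3 BMP-SMAD genes and 15 to 18 targets were called, and 1720 to 2042 genes in all; fewer libraries were fitted there. Array weights gave 6 other helix-loop-helix genes. BMP-SMAD genes numbered 1 with a minimum of 5 FPKM, where fewer were tested, and 4 after quantile normalization. Without a filter 1 EGR gene and 1 coregulator were called. Of the 24 other genes named by list rank or correlation, 17 kept their call in every alternative, 7 lost it in at least 1 and 0 changed sign. Genes named after their values were seen, such as LDB1, SSBP3 and KDM1A, are not among these. Median scaling shifted the median log2 change by 0.01.

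The replicate numbers of the labels did not pair the libraries: same-numbered libraries correlated at 0.067, 0.025 and 0.0055 in their deviations. With the replicate block 1805 genes were called in place of 2515, with 1 EGR gene and 1 coregulator. It ended the calls of EGR1, RUNX2, PRMT5 and NCKAP5L and changed no call of a member.

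With 3 libraries a group, changes as small as those of TCF3 and ID2 could not be told from 0, and no counts were used, so no depth-based limit was set for ID4.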

Other observations

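Other helix-loop-helix factors, which do not form part of the E protein and ID pairs above, were also counted. Of 57 such genes 30 were tested, 2 were called higher and 1 lower, beside 19.9% of all tested genes called, and the median log2 change was -0.01. HES1, a repressor downstream of NOTCH, rose from 38.1, 34.0 and 33.6 FPKM to 54.2, 55.5 and 49.9 FPKM (log2 change 0.58, limma adjusted p = 0.00199). USF1, a widely expressed E-box factor, rose from between 36.8 and 42.0 FPKM to between 59.9 and 65.3 FPKM (log2 change 0.70, adjusted p = 0.000822). SREBF2, which drives sterol synthesis genes, fell from between 69.8 and 72.6 FPKM to between 50.1 and 54.5 FPKM (log2 change -0.44, adjusted p = 0.00167). MYC and its partner MAX had log2 changes of -0.08 and 0.00 and were not called.

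Of 23 coregulators of E proteins, 20 were tested and 3 were called, beside 19.9% of all tested genes called and 10.1% called higher. All 3 were higher: RUNX2 (log2 change 0.81, adjusted p = 0.0173), the arginine methyltransferase gene PRMT5 (0.32, adjusted p = 0.0182) and the demethylase gene KDM1A (0.25, adjusted p = 0.0143). The calls of RUNX2 and PRMT5 were lost in 4 of 14 and in 6 of 15 alternatives, and RUNX2 lies on chromosome 6, where 35.6% of tested genes were called. Leaving out IK-KO replicate 1 left RUNX2 and PRMT5 as the only called coregulators, so the call of KDM1A was lost there. The acetyltransferase genes EP300 and CREBBP, with log2 changes of -0.02 and 0.05, were not called. Among 20 genes of the turnover of ID and E proteins, 19 were tested, 4 were called higher and 1 lower, beside 19.9% of all tested genes called. CUL1, a ubiquitin ligase scaffold, rose from 28.7, 26.4 and 25.7 FPKM to 44.4, 43.7 and 44.2 FPKM (log2 change 0.69, adjusted p = 0.000487). SKP1, which joins CUL1 to its substrate receptors, rose from between 434 and 532 FPKM to between 672 and 706 FPKM (log2 change 0.48, adjusted p = 0.00604). ANAPC2, a subunit of the anaphase-promoting complex, fell (log2 change -0.39, adjusted p = 0.0208), a call that 4 of 15 alternatives ended. USP1, whose product removes ubiquitin from ID proteins, had a log2 change of 0.04 and was not called.

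The tested genes whose log2(FPKM + 1) followed ID1 most closely over the 6 libraries were ABCF1 (Pearson r = 0.9995) and CCT3 (0.998). Those nearest to ID3 were SLC3A2 (0.999) and NCKAP5L (0.998). All 4 were called higher in IK-KO, a call that NCKAP5L lost in 5 of 15 alternatives, and 760 and 662 tested genes had r over 0.95 with ID1 and ID3. The 6 libraries fall into 2 separate groups for these genes, so the values are given as a description only. ABCF1 lies on chromosome 6, where 35.6% of tested genes were called.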
